A study of Mus musculus with 48 samples.

Results

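Gene expression in the liver of mice lacking Bmal1 under an aP2-driven Cre recombinase was compared with that of littermate controls at 4 h, one of 6 collection times. The comparison was defined by genotype and collection time alone and holds 8 of the 48 libraries of the series, 4 from knockout mice (KO) and 4 from controls (WT in the labels). KO mice carried floxed Bmal1 alleles (Bmal1 f/f) together with the aP2-Cre transgene. The genotype of the littermate controls at either allele is not given beyond WT. All mice were C57BL/6, were 4 to 6 months old per the design text, had been housed with food freely available in 12 h of light and 12 h of darkness, and were killed in the dark after 36 h without light. The aP2 promoter, that of the fatty acid binding protein gene Fabp4, is a driver used for adipocytes, and its activity in other cells of these mice was not measured. The labels give adipocyte as cell type while tissue and source say liver.

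BMAL1, the product of the gene listed here as Arntl, pairs with CLOCK or NPAS2 and activates genes with E-box motifs, among them those of its own repressors, the Period and Cryptochrome genes. A second loop runs through the REV-ERB receptors (Nr1d1, Nr1d2), which repress Arntl, and the ROR receptors, which activate it. In liver this clock drives daily cycles of metabolic genes, which also follow feeding and signals from other organs, fat included. The comparison asks what differs in liver, 1 time in the cycle at a time, when the clock gene is deleted with a driver aimed at fat.

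Total counts without the albumin row lay between 12908159 and 13006799 in the 8 libraries, and values below are CPM, read counts scaled to the size and composition of each library. Hepatocyte markers made up 66489 to 81674 CPM in WT and 62426 to 82685 CPM in KO. The adipocyte genes Adipoq, Plin1 and Cfd had at most 2 counts and Lep and Retn none. The 5 tested genes of the adipocyte list, however, had reads in each of the 8 libraries. They summed to 456 to 1082 CPM in WT and 700 to 1378 CPM in KO. Among them Fabp4 had 48 to 113 counts. Which cells these reads came from was not tested. The design text calls the mice male, but Xist, which is transcribed from the inactive X of females, had 4615 to 13910 counts in each of the 8 libraries and Y-linked genes had 1 count in all. Arntl in liver does not check a deletion aimed at fat, and its counts do not separate the floxed part.

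One KO library stood apart from the other 3. The libraries differed in how expression changed with the GC content of transcripts, given here as the slope of the log2 level, relative to the mean of all 48 libraries, per 10 percentage points of GC. The slopes were 0.50, 0.32, 0.02 and −0.02 in WT replicates 1 to 4 and 0.46, −0.34, −0.77 and −0.67 in KO replicates 1 to 4. KO replicate 1 therefore lay with WT replicates 1 and 2, and the difference between the groups in this slope did not pass the test (exact permutation test, two-sided, p = 0.143, n = 4 each, smallest possible p = 0.0286). KO replicate 1 was also nearer to the WT libraries (mean root mean square log2 distance 0.597) than to the other KO libraries (0.998). With the GC trend removed the distances were 0.559 and 0.747. KO replicates 2, 3 and 4 were each nearer on average to the KO than to the WT libraries, although KO replicate 2 lay 0.647 from WT replicate 3 and 0.670 from KO replicate 3. Whether the label of KO replicate 1 is right cannot be settled from these files. KO replicate 2 differed in the acute phase gene Saa1, with 54369 counts against 488 to 1559 in the other 7 libraries. Results are given also without KO replicate 1, the left-out library with the largest effect on the counts, and with the GC trend removed. Because this library was picked for that effect and lay near WT, leaving it out favours wider differences. Calls made without it describe that dependence and are not separate support. The part of the acute phase difference in the results was not tested.

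**Figure D1:**
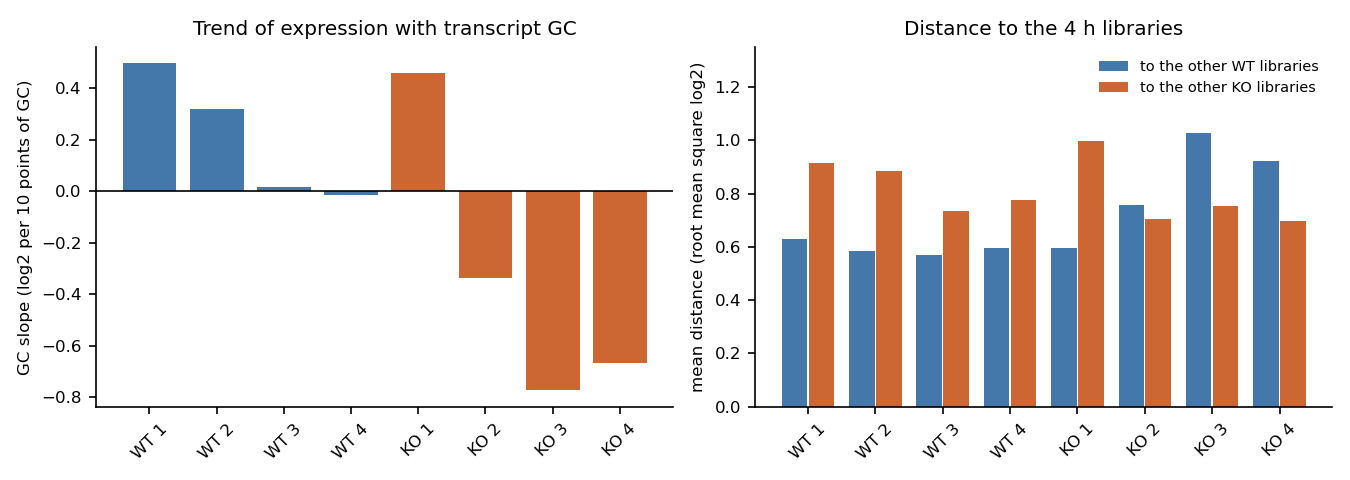
Left, slope of expression on transcript GC content in each 4 h library (log2 per 10 percentage points). Right, mean distance of each library to the WT libraries (blue) and to the KO libraries (orange), as the root mean square log2 difference over genes. KO replicate 1 has a slope of 0.46 and lies 0.597 from WT and 0.998 from the other KO libraries.

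At 4 h, 5 genes fell in KO liver and none rose (edgeR quasi-likelihood test, Benjamini-Hochberg adjusted p under 0.05), which is 0.0366% of the 13646 genes tested. They were Dusp1, which encodes a phosphatase that switches off MAP kinases, Map4k4, which encodes a kinase upstream of the JNK pathway, Rec8, a cohesin subunit gene of meiosis, Wfikkn1, which encodes a secreted protease inhibitor that binds the growth factor myostatin, and Tmem171, a transmembrane protein gene. An unadjusted p under 0.05 was reached by 3175 genes (23.3%). In 543 genes (3.98% of those tested) every KO library lay below every WT library, and in 520 (3.81%) above. In all 5 called genes the 4 KO libraries lay below the 4 WT libraries.

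Dusp1 (chromosome 17, 26642535 to 26645464 in mm9, the build of the deposited table) had the largest difference for its error. It stood at 43.3, 137, 34 and 25.7 CPM in WT replicates 1 to 4 and at 18.6, 9.98, 8.05 and 8.74 CPM in KO replicates 1 to 4, a log2 difference of −2.40 ± 0.44 (SE, edgeR adjusted p = 0.0361). Log2 differences below are KO minus WT, each with its SE and, where given, the edgeR adjusted p. Where removing the GC trend moved one by over 1.5 times, the value without the trend is added. WT replicate 2 was the highest library by far, and the KO libraries other than replicate 1 lay within a narrow range. Without WT replicate 2 the difference was −1.59 and was not called (adjusted p = 0.248). The promoter of Dusp1 is shown because it is the one with any of the 4 motifs searched among the 3 called genes whose promoters were searched. Map4k4 and Tmem171 were not among those 3. The stretch is from RefSeq on GRCm38.p6, chr17:26508578-26508630, minus strand, 158 to 106 bases before the start site, with the cyclic AMP response element TGACGTCA and the E-box CACGTG in capitals.
Dusp1: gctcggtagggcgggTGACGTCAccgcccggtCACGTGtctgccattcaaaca
Of all 32851 promoters of the same 300 bases, 1.79% held TGACGTCA and 7.15% held CACGTG on either strand. The D-box TTATGNAA (3.38% of promoters) and the nuclear receptor half-site AGGTCA (16.3%) were not in the Dusp1 window. Promoters of Rec8 and Wfikkn1 held none of the 4 motifs in this window. A match describes these letters and no binding.

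Map4k4 (chromosome 1, 39957758 to 40083155) had the smallest SE of the called genes. It measured 24.8, 27.4, 22.4 and 25.8 CPM in WT and 15.2, 10.9, 10.4 and 10.7 CPM in KO, a log2 difference of −1.09 ± 0.22, adjusted p = 0.0439. KO replicate 1 lay between the other KO libraries and WT. Rec8 (chromosome 14, 56236874 to 56244232) measured 6.14, 3.52, 2.84 and 1.58 CPM in WT and 1.09, 0.483, 0.575 and 0.155 CPM in KO (−2.59 ± 0.51, adjusted p = 0.0439). The other genes of a list of cohesin and meiosis genes did not pass the test, with 9 of the 11 tested members positive, Rec8 and 1 other negative, and a median of 0.45 (0.02 with the GC trend removed).

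Wfikkn1 (chromosome 17, 26014573 to 26017797) had few reads, 2.45, 2.45, 0.897 and 0.789 CPM in WT and 0.312, 0.241, 0.247 and 0.155 CPM in KO (−2.74 ± 0.56, adjusted p = 0.0439). Tmem171 (chromosome 13, 99456190 to 99464789) was counted 29 times in the 4 WT libraries, at 0.997, 0.611, 0.224 and 0.359 CPM, and 0 times in the 4 KO libraries. Against a floor of 3 counts over the KO group it was at least 9.19-fold lower in KO, a bound that covers counting error in KO only. Its edgeR adjusted p was 0.0439. Both genes were low in every library, and WT replicates 1 and 2 were higher than WT replicates 3 and 4.

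**Figure D2:**
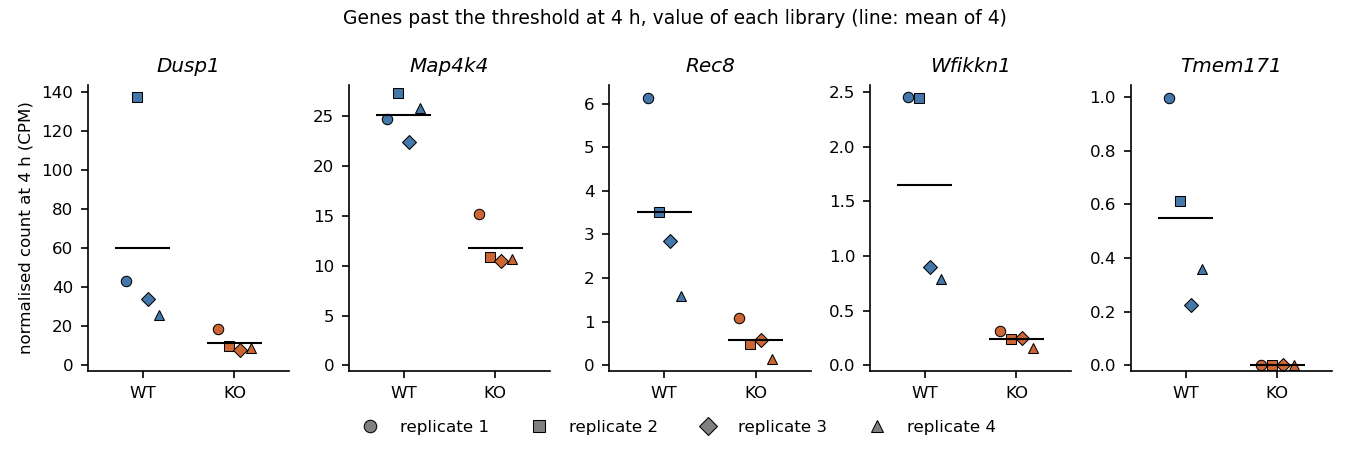
Normalised counts (CPM) of the 5 genes past the threshold at 4 h in each WT (blue) and KO (orange) library, with marker shapes for replicates and lines for the means of 4. Every KO library lies below every WT library, and KO replicate 1 (circle) is the highest KO library for Dusp1, Map4k4, Rec8 and Wfikkn1.

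The number of calls depended on single libraries. Leaving out KO replicate 1 gave 3354 called genes (24.6% of those tested), 1657 higher (12.1%) and 1697 lower (12.4%), and all 5 genes were among them. Leaving out KO replicate 2, 3 or 4 or WT replicate 2 gave 0 genes, and leaving out WT replicate 1 gave 1 (Dusp1). Removing the GC trend gave 4 genes, all lower, which kept Dusp1 and Rec8 and added Tars and Usp46, a deubiquitinase gene named after its value was seen. With the GC trend removed and without KO replicate 1, 1653 genes were called (12.1%), 854 higher (6.26%) and 799 lower (5.86%), again with all 5. Of the 3354 genes, 1191 were also called with the GC trend removed. With the replicate number as a block, 3 genes were called, Dusp1 (adjusted p = 0.0449), Rec8 (0.0339) and Caprin2, which was higher in KO (0.0449), while Map4k4, Wfikkn1 and Tmem171 each had an adjusted p of 0.0508.

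Just short of the threshold stood genes of several functions. The genes of lowest p on the higher side, none past the test, were Olfr1033 (2.00 ± 0.42, adjusted p = 0.0518, 1.10 without the GC trend), listed as an olfactory receptor gene, Caprin2, an RNA-binding protein gene (1.31 ± 0.28, adjusted p = 0.0518, 0.68 without the GC trend), the inositol phosphatase gene Impa1 (0.76 ± 0.16, adjusted p = 0.0633), the methionine aminopeptidase gene Metap1d (0.89 ± 0.20) and the lectin gene Clec2d (1.18 ± 0.27). Clec2d measured 117, 122, 158 and 154 CPM in WT and 240.5, 304, 382 and 319.6 CPM in KO, so that KO replicate 1 also lay above every WT library. Keg1, Ttc32, Ifit1, Zc3hav1 and Trim12c completed the 10, with differences between 0.55 and 1.88, or between 0.45 and 1.44 without the GC trend. Ifit1, Zc3hav1 and Trim12c belong to families known for antiviral defence.

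On the lower side the next genes were Klf11, a Krüppel-like transcription factor gene (−1.12 ± 0.25, adjusted p = 0.0751), Tars, the cytosolic threonyl-tRNA synthetase gene (−0.67 ± 0.15, 0.0784), the tubulin gene Tubb2a (−1.16 ± 0.27, 0.0837), the focal adhesion kinase gene Ptk2 (−0.62 ± 0.15), the actin-severing protein gene Gsn (−1.54 ± 0.37), Zfp652 (−0.93 ± 0.23) and Urb1 (−1.07 ± 0.27). Tars measured 138, 159.6, 136 and 131 CPM in WT and 91, 102, 78.3 and 82.8 CPM in KO, and the groups did not overlap. It passed the test with the GC trend removed (−0.76, edgeR adjusted p = 0.038). Gsn measured 35.1, 26.5, 28.7 and 25.3 CPM in WT and 18.6, 10.3, 5.01 and 5.8 CPM in KO.

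None of the 19 clock genes tested passed the test at 4 h. Arntl (chromosome 7, 120350979 to 120457636) measured 20.2, 34.2, 12.4 and 17.6 CPM in WT and 12.6, 10.5, 6.08 and 8.97 CPM in KO, a log2 difference of −1.14 ± 0.39, adjusted p = 0.132. An exact permutation test on log2 CPM gave p = 0.0571 (two-sided, n = 4 each, smallest possible p = 0.0286). Of the KO libraries 3 lay below every WT library, and KO replicate 1 lay just above WT replicate 3. In each of the 4 same-numbered pairs KO lay below WT, for which an exact test over pairs gave p = 0.125, the smallest 4 pairs allow, and edgeR with the replicate block gave −1.10 (adjusted p = 0.116). Without KO replicate 1 Arntl passed the test (−1.30, adjusted p = 0.0302). Its group means were 37 ± 5.94 CPM (SD, n = 4) in WT at 0 h and 2.14 ± 0.712 CPM at 8 h, so that the WT libraries of 4 h fell in the middle of a steep decline.

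Its partners differed from each other. Npas2 measured 3.45, 14.6, 2.54 and 4.02 CPM in WT and 4.05, 3.54, 0.822 and 1.7 CPM in KO (−1.28 ± 0.51, adjusted p = 0.155), and without WT replicate 2 the difference was −0.40. Clock measured 26.6, 44.9, 40.2 and 42 CPM in WT and 28.5, 59.3, 65.9 and 74 CPM in KO (0.57 ± 0.34, adjusted p = 0.294, 0.08 without the GC trend). The groups overlapped in both genes.

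Among the repressors the signs were mixed. Per1, a gene that also responds quickly to hormones and cyclic AMP, measured 85.1, 59.7, 25.3 and 15.1 CPM in WT and 43, 18.4, 5.84 and 12.4 CPM in KO (−1.22 ± 0.61, adjusted p = 0.22, −0.81 without the GC trend). Per3 measured 16.8, 6.5, 27.2 and 12 CPM in WT and 17.9, 18.6, 58.4 and 37.9 CPM in KO (1.09 ± 0.34, adjusted p = 0.122), the opposite sign, and without KO replicate 1 it passed the test (1.30, adjusted p = 0.0157). The E-box repressor gene Bhlhe40 measured 164, 103, 51.5 and 54.7 CPM in WT and 62.1, 31.7, 33.9 and 30.6 CPM in KO (−1.23 ± 0.39, adjusted p = 0.122), and KO replicate 1 lay above 2 of the WT libraries. Cry2 differed by −0.67 ± 0.33, adjusted p = 0.216, −0.39 without the GC trend. Ciart, a repressor of CLOCK and BMAL1 listed as Gm129, differed by −1.50 ± 0.69, adjusted p = 0.19. It measured 17.6, 4.59, 3.29 and 0.933 CPM in WT and 3.35, 1.29, 1.73 and 2.94 CPM in KO. The groups overlapped, with WT replicate 1 far above the rest and WT replicate 4 below every KO library. The promoter of Ciart is shown because it holds 3 E-boxes, the motif through which BMAL1 acts, on GRCm38.p6 at chr3:95882252-95882359, minus strand, from RefSeq, with each CACGTG in capitals.
Ciart: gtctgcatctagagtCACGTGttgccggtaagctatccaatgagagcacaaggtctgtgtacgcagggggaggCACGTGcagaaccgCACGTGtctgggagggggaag
Of the 19 clock genes, 16 were in the promoter table, and 5 of these held CACGTG in any promoter, among them Per1, Ciart and Tef. By the same count 8.09% of all genes did, and 7.15% of all promoters. The half-site AGGTCA was in 5 of the 16, the D-box in 2 and the response element TGACGTCA in 1.

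In the receptor loop Nr1d1 measured 186, 79.7, 55 and 34.3 CPM in WT and 116, 11.7, 5.18 and 16.9 CPM in KO (−1.25 ± 0.80, adjusted p = 0.324). KO replicate 1 stood among the WT libraries, and without it the difference was −2.97, adjusted p = 0.0191. Its paralog Nr1d2 measured 65, 65.1, 75.2 and 68.5 CPM in WT and 68.2, 93.4, 198 and 182 CPM in KO (0.98 ± 0.36, adjusted p = 0.141, 0.50 without the GC trend), so the 2 receptors of this pair had opposite signs. Rora differed by 0.63 ± 0.33, 0.12 without the GC trend. Of the PAR bZIP factors, which drive rhythmic output genes, Dbp differed by 0.63 ± 0.50, 1.30 without the GC trend and Tef by 0.39 ± 0.20, 0.68 without the GC trend. Their opponent Nfil3 measured 60.3, 45.7, 17.1 and 20.9 CPM in WT and 28.6, 14.3, 17.2 and 13.5 CPM in KO (−0.97 ± 0.43, adjusted p = 0.178, −0.64 without the GC trend).

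**Figure D3:**
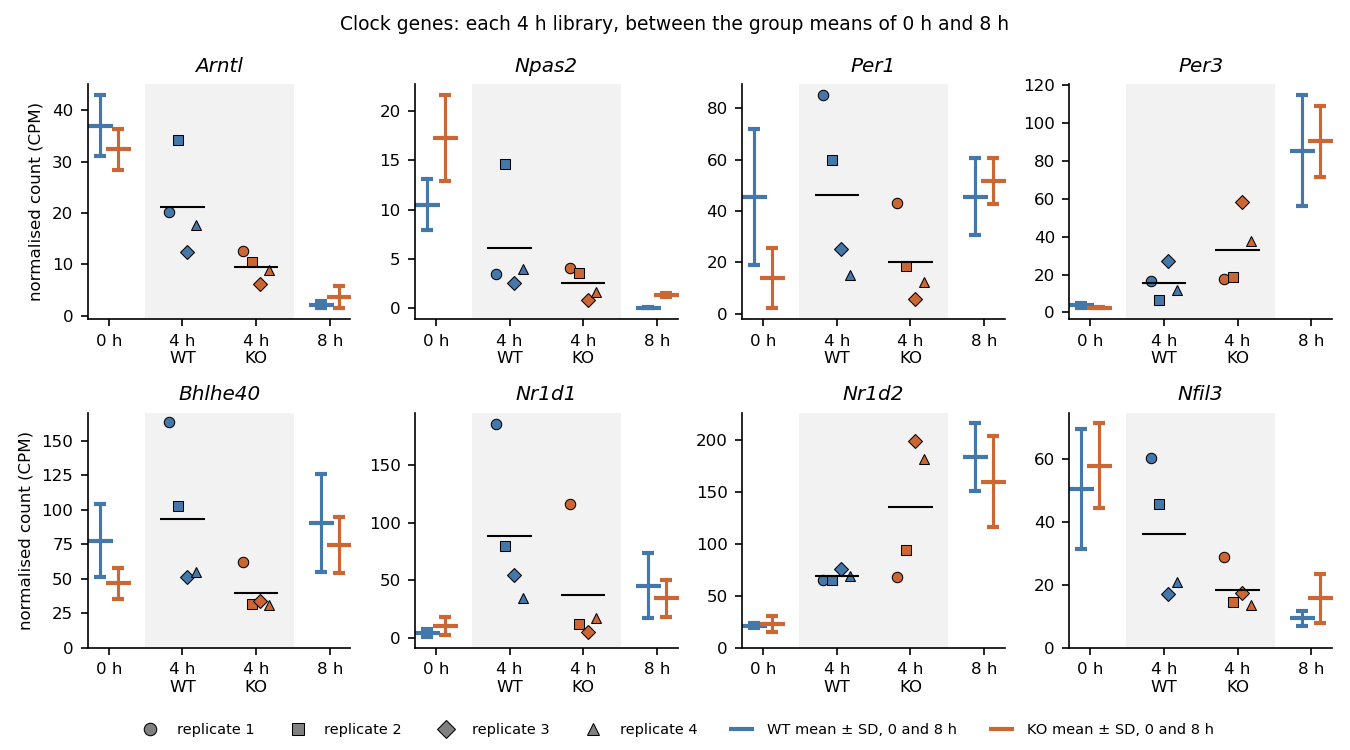
Normalised counts (CPM) of 8 clock genes in each 4 h library (grey band, marker shapes for replicates, lines for means), between the WT (blue) and KO (orange) group means with SD at 0 h and 8 h (n = 4 each). For Arntl the KO libraries at 4 h run from 6.08 to 12.6 CPM, between the WT means of 0 h and 8 h.

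The 4 h difference was set against the change of WT liver from 0 h to 8 h, which uses none of the 8 libraries. Between those times 1019 genes changed in WT (7.47% of those tested, edgeR adjusted p under 0.05). For 931 of them (91.4%) KO minus WT at 4 h had the sign of the WT change, against 76.8% of all genes tested. With the GC trend removed from both, the shares were 88.2% of the 1205 genes then called and 70.0% of all genes. Genes are not independent replicates, and no test was made. Of all 19 clock genes, 12 had the same sign (63.2%), or 10 with the GC trend removed (52.6%), both below the shares of all genes. Of the 13 clock genes called between 0 h and 8 h, 10 did, or 9 with the trend removed. Arntl (−4.10), Npas2 (−6.99) and Nfil3 (−2.44) declined from 0 h to 8 h in WT and were lower in KO at 4 h by their means. Per3 (4.54) and Nr1d2 (3.11) went up over these hours, and Nr1d1, with a 4 h difference of −1.25, went the other way (3.38 from 0 h to 8 h). Map4k4 declined in WT by the same measure (−1.31), as did Tmem171, while Dusp1 was not called (−0.16, adjusted p = 0.823).

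Rhythmic output genes gave the same mixture. In a list of 30, 9 were positive and 21 negative with none called, and the median was −0.19 (0.02 with the GC trend removed), beside −0.01 over all genes. Upp2, a uridine phosphorylase gene, measured 93.2, 90.1, 50.1 and 49.2 CPM in WT and 90.3, 168, 295 and 221 CPM in KO (1.45 ± 0.46, adjusted p = 0.122). Its WT mean at 8 h was 408 CPM. Nampt, the rate-limiting enzyme of NAD salvage, differed by 1.03 ± 0.34, 0.43 without the GC trend.

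Immediate early genes, which respond within minutes to stress and growth signals, were mostly lower by their means. Of 31 tested, 27 were negative and 4 positive, none was called, and the median was −0.53 (−0.39 with the GC trend removed). An unadjusted p under 0.05 was reached by 12, beside 23.3% of all genes tested. Jun, a subunit of the AP-1 factor, measured 14, 59.6, 9.27 and 12.5 CPM in WT and 8.5, 4.91, 4.36 and 3.32 CPM in KO (−2.17 ± 0.57, adjusted p = 0.0964), and Fos, its partner, 1.07, 3.13, 1.79 and 4.09 CPM in WT and 0.156, 0.402, 0.657 and 0.541 CPM in KO (−2.50 ± 0.66, adjusted p = 0.0964). For both genes every KO library lay below every WT library. Gadd45g, a stress response gene, reached 181 CPM in WT replicate 2 and 8.67 to 42.6 CPM in the other WT libraries, against 3.09 to 20.9 CPM in KO (−2.64 ± 0.85, adjusted p = 0.122). The groups overlapped in Gadd45g. Zfp36, which promotes mRNA decay, differed by −1.48 ± 0.51. Its groups overlapped as well, with KO replicate 1 (83.8 CPM) above WT replicates 3 (71.9 CPM) and 4 (47.2 CPM). WT replicate 2, the highest WT library for Dusp1, was also the highest for Jun, Gadd45g and Zfp36.

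Dusp1 was the one called gene among the dual specificity phosphatases, its own family. Of 9 tested, Dusp1 fell, and of the others 6 were negative and 2 positive without passing the test. Of 25 genes of the MAP kinase cascades, Map4k4 fell, and of the other 24, 14 were negative and 10 positive. Mink1, a kinase gene of the same family as Map4k4, measured 72.1, 57.7, 47.9 and 46.5 CPM in WT and 51.1, 19.8, 9.37 and 10.9 CPM in KO (−1.30 ± 0.51, adjusted p = 0.152), and without KO replicate 1 it passed (−2.06, adjusted p = 0.0154). The JNK activator gene Map2k7 differed by −0.60 ± 0.24, −0.25 without the GC trend.

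Interferon-stimulated genes were higher by their means in KO, and KO replicate 1 lay above every WT library for 21 of the 29 tested, against 21.0% of all genes. Of the 29, 26 were positive and 3 negative, with a median of 0.59 (0.65 with the GC trend removed), beside −0.01 over all genes. None was called with all libraries. In 14 of the 29 every KO library lay above every WT library, against 3.81% of all genes. Without KO replicate 1, 12 of the 29 were called, all higher, beside 12.1% of all genes, and with the GC trend removed as well 11, beside 6.26%. The summed level of the list ran from 491 to 922 CPM in WT and from 1078 to 1755 CPM in KO, without overlap.

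Ifit1, which binds foreign RNA, measured 6.98, 5.5, 12.4 and 17.9 CPM in WT and 26.2, 33.1, 40.6 and 42.7 CPM in KO (1.73 ± 0.41, adjusted p = 0.0875). Its neighbour Ifit3 measured 8.9, 5.88, 14.7 and 20.7 CPM in WT and 22.9, 27.1, 37.7 and 46.9 CPM in KO (1.42 ± 0.38, adjusted p = 0.0964). The guanylate-binding protein gene Gbp2, an interferon-inducible GTPase, measured 6.83, 2.67, 8.6 and 10.1 CPM in WT and 15.3, 30.5, 15.8 and 18.7 CPM in KO (1.51 ± 0.36, adjusted p = 0.0875). In all 3 genes the groups did not overlap. Gbp10 measured 1.3, 0.535, 4.19 and 3.87 CPM in WT and 10.4, 8.93, 19.6 and 17.5 CPM in KO (2.50 ± 0.62, adjusted p = 0.0889), but members of the Gbp family are near-identical and may share reads. WT replicates 1 and 2 were lower than WT replicates 3 and 4 for Ifit1, Ifit3 and Gbp10. With the replicate block Ifit1 had an adjusted p of 0.0508.

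The promoters of 3 of these genes are shown because they carry the core of the interferon-stimulated response element, GAAANNGAA, a motif added after the values were seen. It was in 12 of the 21 list members found in the promoter table, counting a gene if any of its promoters held it. By the same count it was in 9.76% of all genes, and in 8.56% of all promoters. The stretches are from RefSeq on GRCm38.p6, plus strand, at chr19:34640765-34640828, chr19:34583359-34583450 and chr3:142620590-142620628, all before the start site. Capitals mark the motif, which reads on the other strand in these 3 and overlaps itself in Ifit1.
Ifit1: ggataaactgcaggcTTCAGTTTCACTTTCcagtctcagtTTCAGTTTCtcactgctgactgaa
Ifit3: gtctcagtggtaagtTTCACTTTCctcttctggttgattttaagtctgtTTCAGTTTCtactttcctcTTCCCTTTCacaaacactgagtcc
Gbp2: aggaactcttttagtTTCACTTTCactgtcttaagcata

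**Figure D4:**
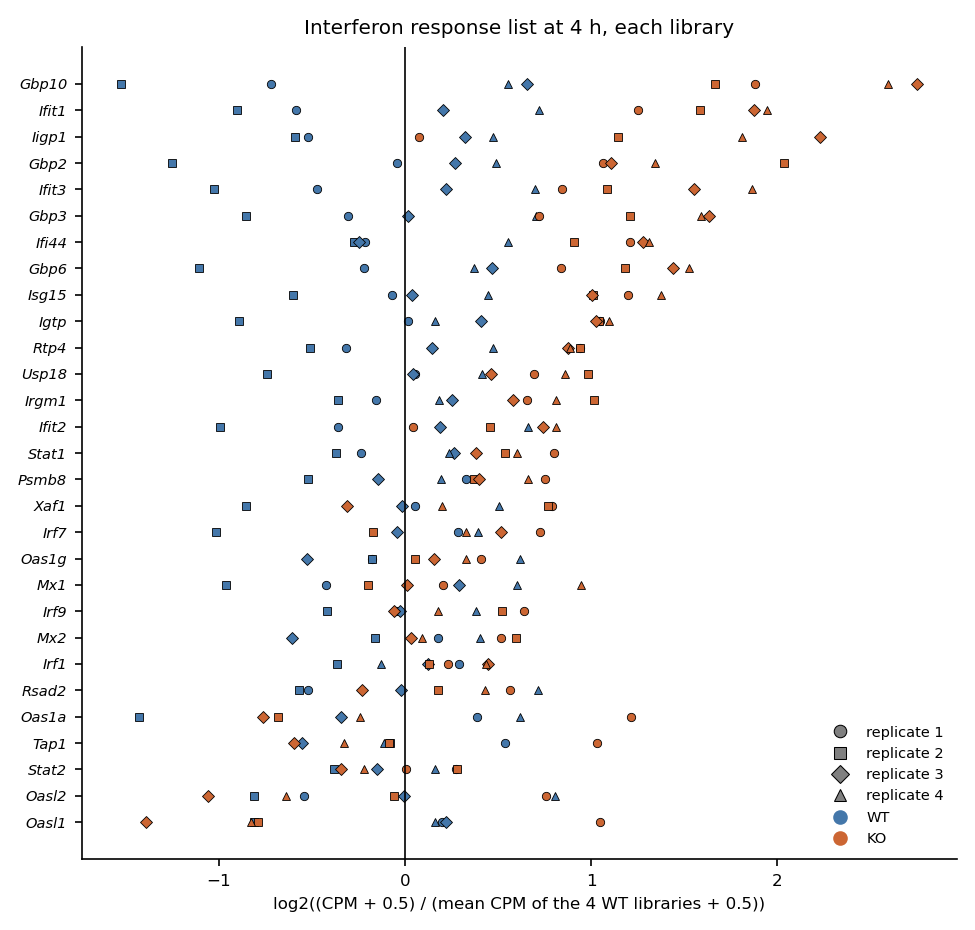
Level of each of the 29 interferon response genes in each 4 h library, as log2 of CPM plus 0.5 over the mean of the 4 WT libraries plus 0.5 (WT blue, KO orange, marker shapes for replicates). In 14 genes all KO markers lie right of all WT markers, KO replicate 1 (circle) included.

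No marker of macrophages, neutrophils or lymphocytes was called. Macrophage and Kupffer cell markers summed to 187 to 624 CPM in WT and 332 to 575 CPM in KO (13 of 17 positive, none called), and lymphocyte markers to 24 to 43.8 and 28.7 to 68.3 CPM (11 of 15 positive, none called). In bulk liver, fewer cells of a type and less RNA per cell cannot be told apart. Acute phase genes were not of 1 sign (16 of 29 positive, none called). Saa1 measured 95.8, 55.9, 45.3 and 35 CPM in WT and 87.6, 4376, 70.7 and 121 CPM in KO, with KO replicate 2 far above the rest (difference 4.33 ± 1.33), and Saa2 differed by 4.83 ± 1.47, again with KO replicate 2 highest. Crp differed by 0.80 ± 0.27, 0.24 without the GC trend and the fibrinogen gene Fga by −1.02 ± 0.36.

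Most endothelial markers were lower by their means in KO. Of 14 tested, 12 were negative and none was called, with a median of −0.54 (−0.43 with the GC trend removed), and their sum ran from 224 to 272 CPM in WT and from 158 to 274 CPM in KO. Pecam1, an adhesion molecule of vessel lining, measured 12.2, 13.3, 13.2 and 18.4 CPM in WT and 12.5, 5.96, 5.18 and 3.94 CPM in KO (−1.05 ± 0.34, adjusted p = 0.125), and KO replicate 1 lay with WT. Without KO replicate 1, 8 of the 14 were called lower, beside 12.4% of all genes, and with the GC trend removed as well 2, beside 5.86%. Lyve1, a sinusoid marker, differed by −1.34 ± 0.47 and Robo4 by −0.72 ± 0.24, −0.42 without the GC trend. The other 2 markers of the 14 went the other way. Clec4g, also a sinusoid marker, had 1976 counts over the 4 WT libraries and 2965 over the 4 KO libraries. Emcn had 133 and 172. Of 16 stromal markers 12 were negative and none was called, with a median of −0.33 (−0.15 with the GC trend removed). The 2 of lowest p were Podn (−2.08 ± 0.57) and Dpt (−1.27 ± 0.45). Their sum did not follow, at 276 to 511 CPM in WT and 402 to 544 CPM in KO. Their part in the other results was not tested.

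Metabolic genes gave no call. For gluconeogenesis and amino acid breakdown 16 of 26 were negative (median −0.22), among them G6pc, the last enzyme of glucose release, at 781, 1491, 573 and 790.5 CPM in WT and 473, 574, 196 and 143 CPM in KO (−1.39 ± 0.43, adjusted p = 0.118). Its highest KO library just exceeded the lowest WT library. Irs2, an insulin receptor substrate gene, measured 8.59, 12.7, 5.31 and 7.96 CPM in WT and 3.43, 0.724, 0.164 and 0.387 CPM in KO (−2.86 ± 0.93, adjusted p = 0.124), without overlap, and Igfbp1, which insulin represses, differed by −1.95 ± 0.80. Lipogenic genes were mostly negative (22 of 27, median −0.32, −0.14 with the GC trend removed) and cholesterol synthesis genes mostly positive (16 of 23, median 0.29), with Stard4 at 0.92 ± 0.33, 0.61 without the GC trend and Sc4mol, a sterol oxidase gene, at 1.37 ± 0.59. The lipid droplet gene Plin4 measured 265, 201, 70.9 and 61.6 CPM in WT and 78.4, 42.3, 11.5 and 24.6 CPM in KO (−1.93 ± 0.53, adjusted p = 0.0987). Targets of PPARalpha were of both signs (13 of 29 positive), with Fabp1 at 1.32 ± 0.44 and the fatty acid transporter gene Cd36 at 1.04 ± 0.35, 0.40 without the GC trend.

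The largest median of any list was that of the major urinary protein genes, which carry pheromones in urine and depend on growth hormone pulses. All 15 tested were positive and none was called, with a median of 1.64. With the GC trend removed 14 were positive and the median was 1.17. Mup10 measured 1008, 832, 419 and 605 CPM in WT and 1039, 1998, 2675 and 3211 CPM in KO (1.64 ± 0.53, adjusted p = 0.123). Mup16, Mup17 and Mup19 differed by 2.62 ± 0.83, 2.92 ± 1.13 and 2.14 ± 0.79. These copies are near-identical, so reads may be split between them, and they were not independent. Genes of the growth hormone axis were of both signs. Of 14 tested, 6 were positive and 8 negative, none was called, and the median was −0.09. With the GC trend removed 12 were positive and the median was 0.21. Among those of lowest p, Igf1 differed by 0.96 ± 0.25, adjusted p = 0.0964, 0.32 without the GC trend. Socs2, a feedback inhibitor, differed by 1.36 ± 0.47 and the receptor gene Ghr by 0.73 ± 0.27, 0.23 without the GC trend. Female-biased and male-biased liver genes had like medians, 0.58 (15 of 18 positive) and 0.60 (10 of 17 positive), or 0.53 and 0.27 with the GC trend removed, and none was called. Among the female-biased genes was Cyp3a16 at 2.99, 0.993, 3.51 and 0.144 CPM in WT and 16.8, 6.52, 136 and 12.4 CPM in KO (4.49 ± 1.58, adjusted p = 0.132), a gene of another near-identical family. Xist differed by 0.91 ± 0.32, 0.44 without the GC trend.

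Some further genes differed between KO replicate 1 and the other KO libraries. Ugt1a1, which conjugates bilirubin, measured 250.1, 261, 296 and 332 CPM in WT and 254, 42.6, 27.9 and 34.2 CPM in KO (−1.67 ± 0.70, adjusted p = 0.166), and without KO replicate 1 the difference was −3.02, adjusted p = 0.0133. Cytosolic heat shock chaperones were mostly positive (14 of 19, median 0.25, none called), with Hsp90aa1 at 78.7, 101, 101 and 102 CPM in WT and 69.2, 218, 321 and 128 CPM in KO (0.94 ± 0.38, adjusted p = 0.157, 0.60 without the GC trend). The mitochondrial chaperonin gene Hspe1 differed by 0.82 ± 0.26. KO replicate 1 stood within the WT range for Ugt1a1, below it for Hsp90aa1 and above it, next to it, for Hspe1.

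Whether these differences belonged to 4 h was tested against the mean difference at the other 5 times. One gene passed, Npas2 (0.00733% of the 13646 tested), with a log2 value of −3.54 ± 0.61 (SE, edgeR adjusted p = 0.0114). Its KO minus WT difference was −1.28 ± 0.51 at 4 h, 0.72 ± 0.48 at 0 h and 0.27 ± 0.49 at 20 h. At 8, 12 and 16 h it was 4.07 ± 0.83, 3.36 ± 0.83 and 2.89 ± 0.64, where the WT means were 0.0742, 0.0995 and 0.31 CPM, so these values rest on few WT reads. Npas2 was not called without WT replicate 2 (−2.66, adjusted p = 0.245), KO replicate 3 (−3.25, 0.108) or KO replicate 4 (−3.39, 0.114).

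The 5 genes that fell at 4 h did not pass this test. Dusp1 was lower in KO by its mean at all 6 times, with values from −0.84 ± 0.44 at 16 h to −2.40 ± 0.44 at 4 h, and Rec8 likewise, from −0.84 ± 0.53 at 20 h to −2.62 ± 0.65 at 16 h. Map4k4 instead had −1.09 ± 0.22 at 4 h and between −0.28 and 0.37 at the other times (4 h minus the others −1.16, adjusted p = 0.109). Ifit1 was at 1.73 ± 0.41 at 4 h, 1.29 ± 0.41 at 16 h and −0.02 ± 0.41 at 20 h. Its 4 h value minus the mean of the other 5 times was 1.13 ± 0.44 and did not pass (edgeR adjusted p = 0.379).

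**Figure D5:**
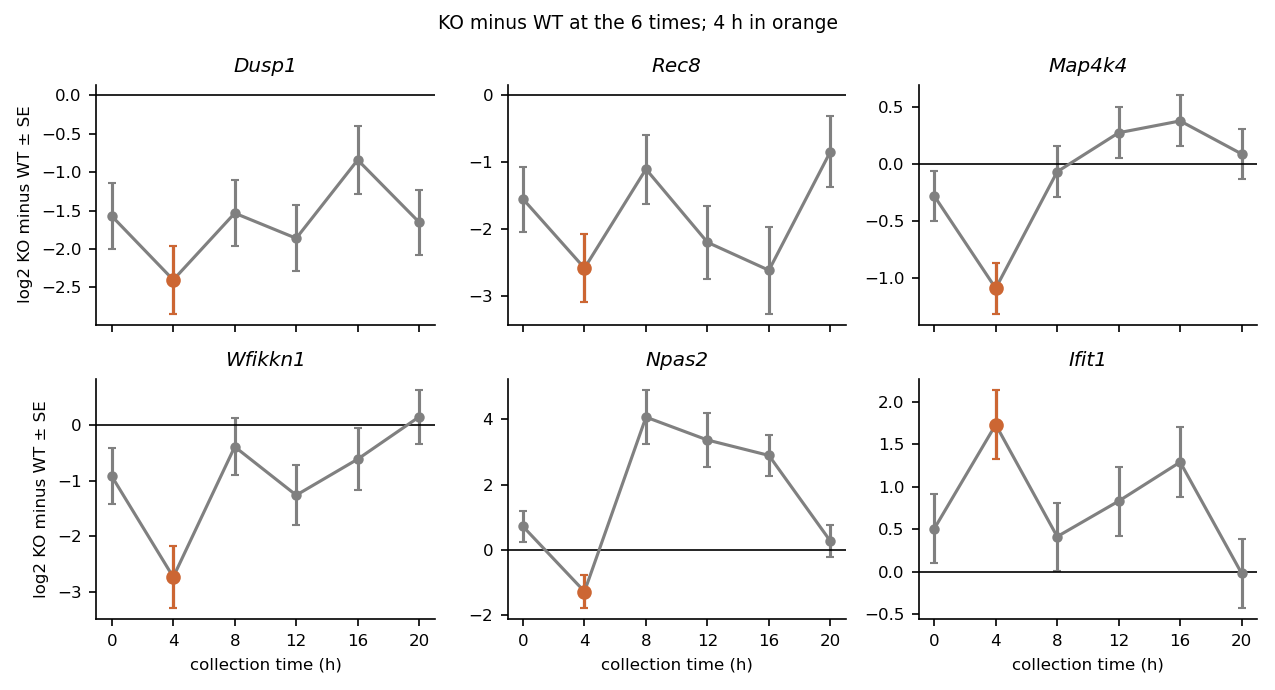
Log2 difference KO minus WT with its SE at each of the 6 collection times for 6 genes, 4 h in orange. Dusp1 and Rec8 are below 0 at every time, Map4k4 is at −1.09 at 4 h, and Npas2 is below 0 only at 4 h.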

How the data were processed

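Poly-A RNA from livers was made into TruSeq version 2 libraries primed with random hexamers, amplified over 13 cycles of PCR and sequenced with a pair of libraries per lane, per the labels' protocols. The values are whole-number read counts of each gene as the authors deposited them. Totals without the albumin row lay between 12841969 and 13009797 in all 48 libraries. The reason for such near-equal totals is not given, so whether the counts are unprocessed is not known. CASAVA, STAR 2.4.1d and mm9 are named in the submitters' processing notes. The sources used here do not give how reads were assigned to genes, whether by strand, or the annotation. The kit does not mark strand, so overlapping and antisense genes cannot be told apart. The Alb row, marked in the table as high, was left out, and 95 duplicated symbols were kept apart by identifier. Genotype, time and replicate number came from the labels, and 0 columns went unmatched.

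Counts were fitted with edgeR 4.0.16 in R 4.3.3 (quasi-likelihood, TMM, 12 group means, all 48 libraries, minimum count 10, minimum total 15), which kept 13646 genes and removed 8707. The tests were two-sided contrasts with Benjamini-Hochberg adjustment over the 13646 genes and a threshold of 0.05. SE is the size of the log2 difference over the square root of F. On simulated counts for the 4 h comparison 39% of 100 genes changed by 1 log2 unit and 94% of 100 changed by 2 were recovered, among 13646 genes. Of 141 calls, 8 were false. The simulated counts were drawn independently, with no GC trend, no replicate effect and no deviating library. These shares therefore check the procedure and do not give the recovery in these libraries. DESeq2 1.42.0, limma 3.58.1 (voom with quality weights), RLE scaling, no filter, the 8 libraries alone, a replicate block, a GC offset and leave-one-out were alternatives. The GC offset removed a lowess trend (span 0.3) on the GC content of the longest GENCODE M21 transcript, known for 97.6% of genes tested. Leave-one-out with the GC offset, the response element motif and the paired exact test were added after seeing the data. Promoters (RefSeq, GRCm38.p6) run from 250 bases before to 50 after the start and were matched by gene identifier and symbol. Motifs were searched on both strands.

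Between same-numbered WT and KO libraries the deviations from each group's mean correlated at 0.446, 0.231, 0.460 and 0.376 over 2000 genes (0.277, 0.269, 0.339 and 0.247 with the GC trend removed). The replicate numbers were taken from the labels, where their meaning is not explained. Since each of these correlations exceeded 0.1, the numbers were treated as pairs in the replicate block and the paired exact test. The main fit had no block. Differently numbered libraries correlated from −0.459 (WT replicate 3 with KO replicate 1) to 0.390 (WT replicate 3 with KO replicate 4). The correlations therefore do not show that the numbers mark pairs. No 2 libraries of a group agreed within sampling noise (chi-square per degree of freedom at least 22.4). The design text gives 4 mice per genotype and time. The labels depart from this at 16 h, where replicate numbers run to 5 in WT and to 3 in KO. The floor used for Tmem171 covers counting error in KO only, while SEs and SDs include the spread between libraries.

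The comparison, the gene lists (29 pathway and 12 marker lists) and the naming rule were chosen with earlier results of these data known. The rule takes the clock genes, the genes past the threshold, 10 genes in each direction by p (those averaging 1 CPM or more, predicted genes left out), up to 4 genes of every list, again by p, and genes past the test against the other times. It gave 169 genes, of which 77 have values in the text, and the others enter the counts of their lists. Beside the 77, Usp46 and the absent markers Adipoq, Plin1, Cfd, Lep and Retn are named. Fabp4, Clec4g and Emcn are given by their counts alone.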

Additional observations from a re-analysis of the deposited data

Results flagged for a closer look

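In 154 groups of 4 libraries (77 genes in WT and KO), 18 had 1 library far from the other 3 by Dixon's criterion, and chance flags about 1 in 20 groups. In 7 of them the library was KO replicate 1. It had 62.1 CPM of Bhlhe40 (30.6 to 33.9 in the other KO libraries), 9.51 of Cd68 (2.14 to 2.66), 54.8 of Cry2 (17.5 to 22.2), 15.2 of Map4k4 (10.4 to 10.9), 115.9 of Nr1d1 (5.18 to 16.9), 10.8 of Robo4 (6.03 to 6.76) and 253.9 of Ugt1a1 (27.9 to 42.6). In 3 it was KO replicate 2, with 4376 CPM of Saa1 (70.7 to 120.5 in the other KO libraries), 2913 of Saa2 (33.5 to 53.6) and 23.2 of Dbp (67.8 to 76.8). KO replicate 3 had 135.7 CPM of Cyp3a16 (6.52 to 16.8). WT replicate 1 had 14.0 CPM of Mup16 (1.76 to 3.01 in the other WT libraries), 85.5 of Mup17 (4.36 to 17.0) and 78.7 of Hsp90aa1 (100.8 to 101.8). WT replicate 2 had 137.5 CPM of Dusp1 (25.7 to 43.3), 59.6 of Jun (9.27 to 14.0) and 14.6 of Npas2 (2.54 to 4.02), and WT replicate 3 had 47.5 of Map2k7 (55.4 to 56.5).

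The KO minus WT difference of Npas2 at 4 h differed from the mean of the other 5 times by −3.54 on the log2 scale (edgeR adjusted p = 0.0114), with KO lower in mean at 4 h and higher in mean at the other times.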

How the results depend on the processing

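The number of genes called at 4 h was 5 and moved under most alternatives: 192 with DESeq2 (114 higher, 78 lower), 6243 with limma voom with quality weights, in which KO replicate 1 had a weight of 0.194, 2 with no filter, 0 with only the 8 libraries, 3 with the replicate block and 0 with the GC offset and the replicate block. It stayed at 5 with RLE scaling and was 4 with the GC offset. Leaving out 1 library gave 0 to 3354 genes. With the GC offset, leaving out KO replicates 1 to 4 gave 1653, 0, 0 and 0, and leaving out WT replicates 1 to 4 gave 2, 0, 5 and 3. Where 0 genes were called by edgeR with only the 8 libraries, 2574 had an unadjusted p under 0.05. For the difference from the other times, 1 gene was called, 4 with DESeq2, 5061 with limma voom with quality weights, and 3 with the GC offset and the replicate block. Leaving out 1 library gave 0 or 1, and with the GC offset 26, 1, 0 and 0 for KO replicates 1 to 4 and 1, 0, 2 and 1 for WT. The cause was not tested. No gene with values in the text changed its sign under any alternative run for it. Of 78 values of the text, voom called 66 further ones, beside 6243 of all 13646 genes at 4 h. Leaving out KO replicate 1 called 63 further ones of 78, beside 24.6% of all genes. DESeq2 called 25 further ones of 75, beside 192 of 12313 genes. Many of these genes were named by their low p in the same libraries, so these counts are no separate support. In the replicate block Map4k4, Wfikkn1 and Tmem171 were lost and Caprin2 was gained, with no other call changed among these genes. The test against the other times could not be fitted on the 8 libraries alone. Depth limits Wfikkn1, Tmem171 and Rec8, with under 7 CPM in each library.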
